A study of Mus musculus with 20 samples.

Results

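RNA levels of the hypoxia-inducible factor (HIF) subunits, of the hydroxylases that sense oxygen for them and of Vhl were examined in kidney tumors and normal kidneys of mice. The 10 genes were taken by symbol from a table of raw read counts that lists 54532 genes. They were the alpha subunits Hif1a, Epas1 and Hif3a, the beta subunits Arnt and Arnt2, the prolyl hydroxylases Egln1, Egln2 and Egln3, the asparaginyl hydroxylase Hif1an, and Vhl. The tumors were 10 Cre-less AAV model tumors from a cohort of 10 C57BL/6 mice of the genotype LSL-Cas9/+; Pax8 Cre/+, injected in the kidney with an adeno-associated virus (AAV) that carried sgRNAs against Vhl, Pbrm1, Keap1 and Tsc1. The normal kidneys were 10 samples of normal kidney from this cohort, so they carried the same Cas9 and Cre alleles as the tumors and came from injected animals. The methods of the study give both sexes and an age of 8 to 12 weeks at injection, and the labels do not give the age or sex behind a library. In this model Cas9 is made in cells in which the Pax8 promoter drives Cre, which include tubule cells. The tissue was sequenced in bulk after poly A enrichment, so a lower level in a tumor can come from fewer cells of a type or from less RNA per cell, which cannot be told apart here.

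HIF is a pair of an alpha and a beta subunit that binds DNA and switches on genes for glycolysis, blood vessel growth and red cell production. In the presence of oxygen the prolyl hydroxylases Egln1, Egln2 and Egln3 (also named PHD proteins) mark the alpha subunits, and the Vhl protein binds the marked subunits and has them ubiquitinated and degraded. Hif1an (also named FIH) hydroxylates an asparagine of the alpha subunits and so hinders their binding to coactivators. Loss of VHL is the hallmark of human clear cell kidney cancer, in which HIF alpha subunits escape degradation. Because this control acts on the protein, the RNA levels below do not measure how much HIF protein the tumors held.

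Total counts ranged from 18447394 to 24902973 in tumors and from 14737516 to 26679704 in normal kidneys. Levels are given as CPM, which are counts divided by library size after scaling by TMM factors. Several libraries stood apart. In normal kidney 9 the 3838 tested genes with the longest transcripts differed from the other normal kidneys by a median of -0.95 log2 units, and the 3839 with the shortest by 0.90. Tumor 7 had 8302 CPM summed over 9 fibroblast and pericyte markers, against 1324 or less in any other tumor. In normal kidneys 5, 7 and 8 the summed proximal tubule markers were 1290 to 3278 CPM, against 6595 to 10941 in the other normal kidneys. In markers of the loop of Henle, distal tubule and collecting duct they averaged 7.18 log2 CPM or less, against 7.98 or more. By summed CPM of these markers normal kidney 8, at 8292, lay within the range of the others. Normal kidney 7 had the most fibroblast and pericyte markers (1572 CPM) and proliferating cell markers (159 CPM) of its group. The normal kidneys expressed markers of the whole nephron, whereas markers of the loop of Henle, distal tubule and collecting duct summed to 13.2 CPM or less in every tumor and to 4090 CPM or more in every normal kidney. Proximal tubule markers summed to between 1003 and 8715 CPM in tumors.

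All 10 genes passed the filter on low counts. In the quasi-likelihood test of edgeR, adjusted by Benjamini-Hochberg over the 15354 genes tested, 3 of the 10 (Hif3a, Egln3 and Egln1) were higher in tumors, 4 (Epas1, Arnt2, Hif1a and Vhl) were lower, and 3 (Egln2, Hif1an and Arnt) did not pass an adjusted p of 0.05. Among all genes tested, 47.5% passed, 23.6% as higher and 23.8% as lower, so passing alone does not set a member apart. The number of members that passed was not tested against these shares. Every tumor lay above every normal kidney for the 3 genes that were higher, a pattern seen in 5.87% of all genes tested. None of the 10 genes had every tumor below every normal kidney, against 4.74% of all genes. Under the limits of the study (1 on the log2 scale for the fold change, 0.001 for the unadjusted p) the same 3 genes passed as higher (8.85% of all genes) and Epas1 alone passed as lower (10.2% of all genes). Its log2 fold change of -1.02 lies close to that limit, and it missed the limit in 12 of 33 other fits, 10 of them without a single library (normal kidney 3, 6 or 10, or tumor 2, 3, 4, 5, 6, 8 or 10), at -0.995 to -0.943 in those 10.

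**Figure D1:**
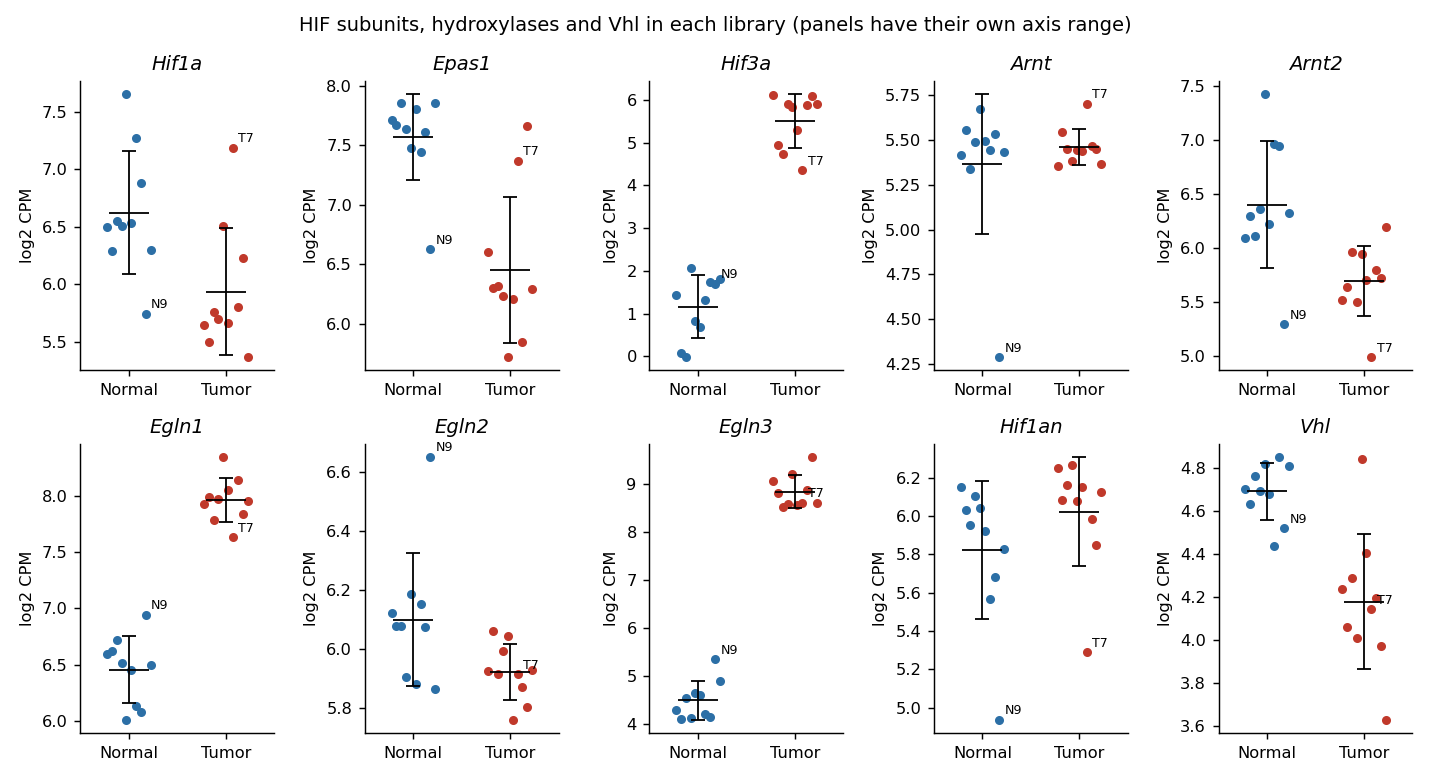
Level of each of the 10 genes in each library, as log2 CPM on the y axis, for 10 normal kidneys (blue) and 10 tumors (red); the bar and whiskers are the mean and SD, and N9 and T7 mark normal kidney 9 and tumor 7. Hif3a, Egln1 and Egln3 have no overlap between the groups, while normal kidney 9 lies apart from its group in Epas1, Arnt, Egln2 and Hif1an.

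Vhl (ENSMUSG00000033933, chromosome 6, 113623959 to 113631633 of GRCm38, plus strand), which encodes the subunit that recognizes hydroxylated HIF alpha, was targeted in these tumors. Its level ranged from 12.3 to 28.6 CPM in tumors with a median of 17.9, and from 21.6 to 28.8 CPM in normal kidneys with a median of 25.9. Of the 10 tumors, 9 lay below every normal kidney, and tumor 5, at 28.6 CPM, was within their range and near its upper end. Tumors averaged 18.4 ± 4.30 CPM (SD, n = 10) and normal kidneys 25.8 ± 2.32 CPM (SD, n = 10), and the log2 fold change was -0.49 (SE 0.118, adjusted p = 0.00179). A count over the whole gene does not show how much of the RNA carried an edit, and tumors also hold cells that do not make Cas9. The other targeted genes did not move together, since Keap1 rose by 0.83 on the log2 scale (SE 0.0887, adjusted p = 1.3e-07), Tsc1 fell by 0.61 (SE 0.181, adjusted p = 0.00871) and Pbrm1 had a log2 fold change of -0.28 (SE 0.188, adjusted p = 0.230).

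Among the alpha subunits, Hif3a rose and Epas1 and Hif1a fell in tumors. Epas1 (ENSMUSG00000024140, chromosome 17, 86753907 to 86833410, plus strand) encodes HIF2 alpha, which in normal kidney is known from endothelial and interstitial cells and which drives human clear cell kidney cancers. It ranged from 52.7 to 201.8 CPM in tumors (median 78.5) and from 98.9 to 231.0 CPM in normal kidneys (median 201.6). In 8 tumors Epas1 lay below every normal kidney. Tumors 7 and 9, at 165.2 and 201.8 CPM, overlapped with the normal group, and the lowest normal kidney was number 9. Tumors averaged 96.0 ± 48.5 CPM (SD, n = 10) and normal kidneys 194.3 ± 38.9 CPM (SD, n = 10), and the log2 fold change was -1.02 (SE 0.223, adjusted p = 7.6e-04). Leaving out both normal kidney 9 and tumor 7 gave -1.24 (adjusted p = 3.3e-05).

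Hif1a (ENSMUSG00000021109, chromosome 12, 73901375 to 73947530, plus strand) encodes HIF1 alpha, the subunit found in most cell types and the main driver of glycolytic genes. Its level was 41.1 to 145.7 CPM in tumors (median 53.0) and 53.5 to 201.4 CPM in normal kidneys (median 91.6). The highest tumor was tumor 7, and the next was tumor 5 at 90.9 CPM. Averages of 66.0 ± 31.7 CPM (SD, n = 10) for tumors against 105.1 ± 43.1 CPM (SD, n = 10) for normal kidneys gave a log2 fold change of -0.67 (SE 0.244, adjusted p = 0.0280). This call was the least stable of the 7. It was lost when normal kidney 5 or 7 or tumor 2, 6 or 10 was left out (adjusted p between 0.0506 and 0.0648), and without normal kidneys 5, 7 and 8 together the log2 fold change was -0.31 (adjusted p = 0.282). These 3 normal kidneys, the ones with few proximal tubule markers, had 118.0 to 201.4 CPM of Hif1a against 53.5 to 93.5 CPM in the other 7. Without normal kidney 9 and tumor 7 the log2 fold change was -0.98 (adjusted p = 2.9e-04). With a block for the replicate number in the edgeR fit of all libraries it was -0.69 (adjusted p = 0.00229). The fits that left out libraries had no such block, so the stability of the blocked call was not examined.

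Hif3a (ENSMUSG00000004328, chromosome 7, 17031507 to 17062427, minus strand) encodes HIF3 alpha, some isoforms of which inhibit the other alpha subunits, and is itself known as a HIF target. Normal kidneys held 0.887 to 4.06 CPM (median 2.49), which was 16 to 88 reads per library. Tumors held 20.4 to 69.0 CPM (median 57.7), and the lowest was tumor 7. The lowest tumor was thus above the highest normal kidney. Means of 49.0 ± 18.0 CPM (SD, n = 10) against 2.38 ± 1.09 CPM (SD, n = 10) gave a log2 fold change of 4.36 (SE 0.311, adjusted p = 3.9e-10), or 20.5-fold. Within tumors Hif3a still varied more than 3-fold, and tumors 2, 3, 6 and 7 lay below 40 CPM while the other 6 lay between 56.5 and 69.0 CPM.

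Promoter sequences of the 3 genes that rose are shown because HIF binds a short core, ACGTG or GCGTG, and such cores can be looked for near a gene's start. The windows are the 250 bases before each RefSeq start (GRCm38.p6), on the strand of the gene, and capitals mark every ACGTG or GCGTG on either strand, so that CACGT and CACGC are the same cores read on the other strand. For Egln1 the last 70 bases of the window lie inside the gene's annotated span and are left out.
Hif3a, chr7:17062428-17062677, minus strand: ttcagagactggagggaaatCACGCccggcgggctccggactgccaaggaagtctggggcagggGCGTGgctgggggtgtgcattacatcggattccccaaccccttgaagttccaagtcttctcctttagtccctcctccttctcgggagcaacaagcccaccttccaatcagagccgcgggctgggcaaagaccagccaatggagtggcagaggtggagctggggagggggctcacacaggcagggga
Egln3, chr12:54203875-54204124, minus strand: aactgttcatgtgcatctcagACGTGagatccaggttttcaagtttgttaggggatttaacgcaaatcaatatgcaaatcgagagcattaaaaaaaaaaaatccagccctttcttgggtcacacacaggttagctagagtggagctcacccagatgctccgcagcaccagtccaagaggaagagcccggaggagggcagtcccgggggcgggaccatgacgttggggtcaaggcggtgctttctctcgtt
Egln1, chr8:124949325-124949504, minus strand: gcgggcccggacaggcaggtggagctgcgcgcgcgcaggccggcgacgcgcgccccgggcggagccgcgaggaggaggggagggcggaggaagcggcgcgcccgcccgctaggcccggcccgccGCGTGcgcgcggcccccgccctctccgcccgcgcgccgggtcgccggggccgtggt
Over the full 250 bases, Hif3a held 2 cores, Egln1 held 2 (the second, an ACGTG, 68 bases before the start) and Egln3 held 1. Of the 9 members found among the RefSeq promoters, Hif1a, whose RefSeq start lies inside the span the files give the gene, held 3 cores, of which 2 are the strands of a single CACGTG, and Arnt held 1. The start of Egln2 farther upstream held 4 and the other held 1. Arnt2, Hif1an and Vhl held none. Of 32851 promoter windows of this length 38.6% held at least 1 core, so their presence does not set the 3 genes apart, and a match of 5 letters is not evidence of binding.

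**Figure D2:**
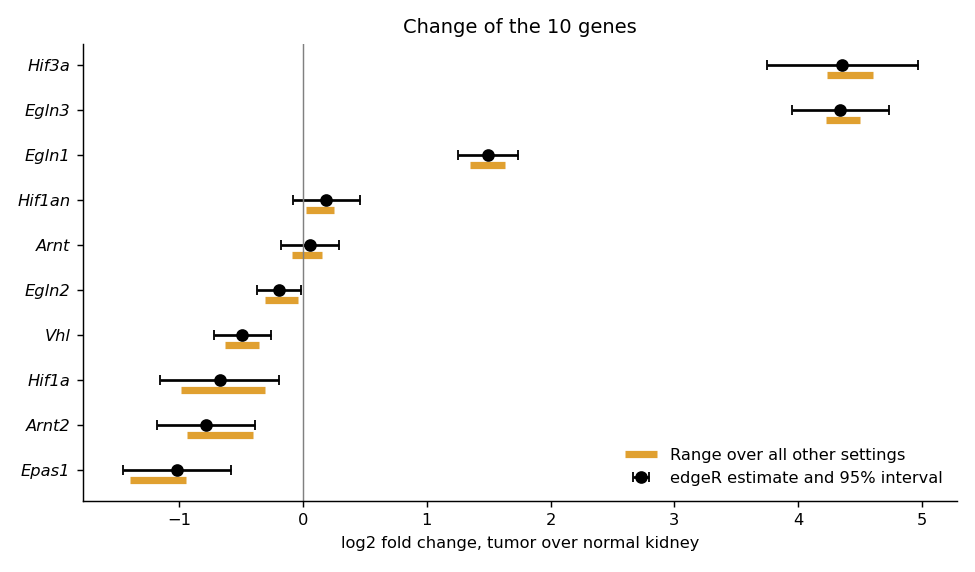
Log2 fold change of tumors over normal kidneys for the 10 genes, with edgeR's estimate and its 95% interval (black) and, below each, the range of estimates over all other settings and left-out libraries (orange). Hif3a and Egln3 lie near 4.4 and 4.3, Egln1 near 1.5, and the orange range of Hif1a spans -0.98 to -0.31.

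The beta subunits, which pair with every alpha subunit, differed from each other. Arnt (ENSMUSG00000015522, chromosome 3, 95434388 to 95497240, plus strand), the widely expressed partner also named HIF1 beta, ranged from 40.9 to 52.0 CPM in tumors (median 43.5) and from 19.4 to 51.0 CPM in normal kidneys (median 44.2). The lowest normal kidney was number 9, and the next lowest had 40.4 CPM. The log2 fold change was 0.06 (SE 0.120, 95% interval -0.18 to 0.29, adjusted p = 0.714), and it turned to -0.03 without normal kidney 9. It also turned to -0.06 with upper quartile scaling, -0.09 with library totals and -0.02 with limma-voom quality weights, so Arnt had no stable direction.

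Arnt2 (ENSMUSG00000015709, chromosome 7, 84246278 to 84410176, minus strand) is the related partner known from brain and kidney. It ranged from 31.8 to 73.3 CPM in tumors (median 52.5) and from 39.3 to 172.1 CPM in normal kidneys (median 79.5). A single tumor, number 7, lay below every normal kidney, and normal kidney 9 was the lowest of its group. Means of 53.0 ± 11.3 CPM (SD, n = 10) and 91.3 ± 38.1 CPM (SD, n = 10) gave a log2 fold change of -0.78 (SE 0.203, adjusted p = 0.00326). As with Hif1a, the 3 normal kidneys with few proximal tubule markers were the highest, at 123.2 to 172.1 CPM against 39.3 to 82.4 CPM in the other 7. Without them Arnt2 had a log2 fold change of -0.41 and stayed past the threshold (adjusted p = 0.0346).

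All 3 prolyl hydroxylases were measured, and they parted widely. Egln3 (ENSMUSG00000035105, chromosome 12, 54178981 to 54203860, minus strand), which encodes PHD3 and is among the most strongly HIF-induced genes known, rose from 17.1 to 40.7 CPM in normal kidneys (median 21.2) to 367.8 to 757.5 CPM in tumors (median 419.0). The highest tumor was tumor 9, and the highest normal kidney, number 9, stood at 40.7 CPM against 29.7 CPM in the next. The log2 fold change was 4.34 (SE 0.198, adjusted p = 7.0e-13), or 20.3-fold. By the size of the rise Hif3a and Egln3 ranked 108 and 109 among all genes tested.

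Egln1 (ENSMUSG00000031987, chromosome 8, 124908587 to 124949324, minus strand) encodes PHD2, the main oxygen sensor of most cells, and is known to be induced by HIF as well. Tumors ranged from 198.5 to 325.4 CPM (median 249.5) and normal kidneys from 64.4 to 122.9 CPM (median 90.9). The lowest tumor was tumor 7, and the highest normal kidney was number 9. Means of 251.6 ± 34.9 CPM (SD, n = 10) and 89.4 ± 18.2 CPM (SD, n = 10) gave a log2 fold change of 1.49 (SE 0.123, adjusted p = 2.8e-09), or 2.81-fold. Opposite to Hif1a and Arnt2, Egln1 was lowest in the 3 normal kidneys with few proximal tubule markers, at 64.4 to 70.01 CPM against 87.6 to 122.9 CPM in the others. The log2 fold change was 1.35 without them.

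Egln2 (ENSMUSG00000058709, chromosome 7, 27158658 to 27166802, minus strand) encodes PHD1, which is not known as a hypoxia-induced gene. It ranged from 54.1 to 66.7 CPM in tumors (median 60.5) and from 58.1 to 100.4 CPM in normal kidneys (median 67.5), and the highest normal kidney was again number 9, with the next at 72.7 CPM. The log2 fold change was -0.19 (SE 0.0904, 95% interval -0.37 to -0.01), and its p was 0.0465 before and 0.0874 after adjustment. With upper quartile scaling, library totals, a stricter filter or DESeq2 it passed the threshold, at log2 fold changes of -0.31, -0.30, -0.23 and -0.22.

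Hif1an (ENSMUSG00000036450, chromosome 19, 44562850 to 44576274, plus strand) ranged from 39.1 to 77.0 CPM in tumors (median 68.7) and from 30.5 to 70.9 CPM in normal kidneys (median 61.2). Tumor 7 and normal kidney 9 were the lowest of their groups, and 4 tumors lay above every normal kidney. The log2 fold change of 0.19 (SE 0.137, 95% interval -0.08 to 0.46) did not pass the test (adjusted p = 0.267). It passed with limma-voom quality weights, at 0.16 (adjusted p = 0.0396).

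The deviations of normal kidney 9 followed transcript length among the members too. Its log2 CPM differed from the median of the other 9 normal kidneys by 1.07 for Egln3, 0.57 for Egln2, -0.18 for Vhl and 0.44 for Egln1, whose lengths run from 2662 to 3594 bases. For Epas1, Hif1a, Hif1an, Arnt2 and Arnt, with lengths of 5309 to 8007 bases, it differed by -1.04, -0.79, -1.02, -1.03 and -1.20, and Hif3a, at few reads and 6710 bases, differed by 0.39. A correction for gene length in the edgeR fit left the 3 higher and 4 lower calls in place. With it the log2 fold change of Vhl was smaller in size, at -0.35 (adjusted p = 0.0247) against -0.49 without it.

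To compare the genes with each other, levels were divided by the length of each gene's transcripts. In normal kidneys Epas1 was the most abundant of the 10 at 36.6 ± 7.33 CPM per kb (SD, n = 10), followed by Egln1 at 24.9 ± 5.07 and Egln2 at 24.7 ± 4.31, which did not differ beyond their spread. Hif1a followed at 17.8 ± 7.32 and Arnt2 at 11.9 ± 4.95 CPM per kb. Hif1an, Egln3 and Vhl lay close together, at 8.76 ± 1.84, 8.72 ± 2.78 and 8.62 ± 0.773 CPM per kb, above Arnt at 5.28 ± 1.07 and Hif3a at 0.355 ± 0.162. In tumors Egln3 came first at 176.6 ± 46.9 CPM per kb (SD, n = 10) and Egln1 next at 70.02 ± 9.71, with no overlap between them in any library. Egln2 had 21.7 ± 1.43, Epas1 18.1 ± 9.13, Hif1a 11.2 ± 5.38 and Hif1an 9.99 ± 1.67 CPM per kb. The lowest 4, Hif3a at 7.30 ± 2.69, Arnt2 at 6.90 ± 1.47, Vhl at 6.15 ± 1.43 and Arnt at 5.50 ± 0.407 CPM per kb, differed by less than the spread of Hif3a.

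In the makeup of the alpha subunits by length-scaled level, the mean share of Epas1 was lower and that of Hif3a higher in tumors. In normal kidneys Epas1 made up 49.3 to 75.9% of the 3 alpha subunits (mean 67.2%), Hif1a 23.2 to 50.3% (mean 32.1%) and Hif3a 0.222 to 1.66% (mean 0.706%). In tumors Epas1 made up 29.4 to 62.4% (mean 48.1%), Hif1a 20.8 to 45.6% (mean 30.5%) and Hif3a 5.17 to 30.2% (mean 21.4%), with tumor 7 lowest in Hif3a. The share of Hif1a overlapped between the groups, with 3 tumors below every normal kidney. Hif1a exceeded Epas1 in 1 tumor and 1 normal kidney, both numbered 5. The sum of the 3 subunits was 36.6 ± 12.7 CPM per kb (SD, n = 10) in tumors and 54.8 ± 10.3 CPM per kb (SD, n = 10) in normal kidneys, and only tumor 2 lay below every normal kidney, because normal kidney 9 had 28.2 CPM per kb. Tumors 7 and 9, at 58.9 and 60.9, were the highest tumors, and the second lowest normal kidney had 51.8 CPM per kb.

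Among the prolyl hydroxylases Egln3 went from the lowest share in normal kidneys to the highest in tumors. Egln1 and Egln2 each made up a mean of 42.6% in normal kidneys, and Egln3 made up 14.8% (11.1 to 19.5%). In tumors Egln3 made up 60.3 to 77.3% (mean 65.1%), Egln1 26.6% and Egln2 8.30%. Egln3 was at 0.267 to 0.537 times the level of Egln2 in normal kidneys and at 6.35 to 14.3 times in tumors. The summed level rose from 58.3 ± 10.2 to 268.3 ± 49.8 CPM per kb (SD, n = 10 each), and every tumor was above every normal kidney. Of the beta subunits, Arnt made up 32.1% in normal kidneys and 44.9% in tumors, where its share was above every normal kidney in 9 of 10. These shares rest on 1 length per gene and are given as descriptions.

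**Figure D3:**
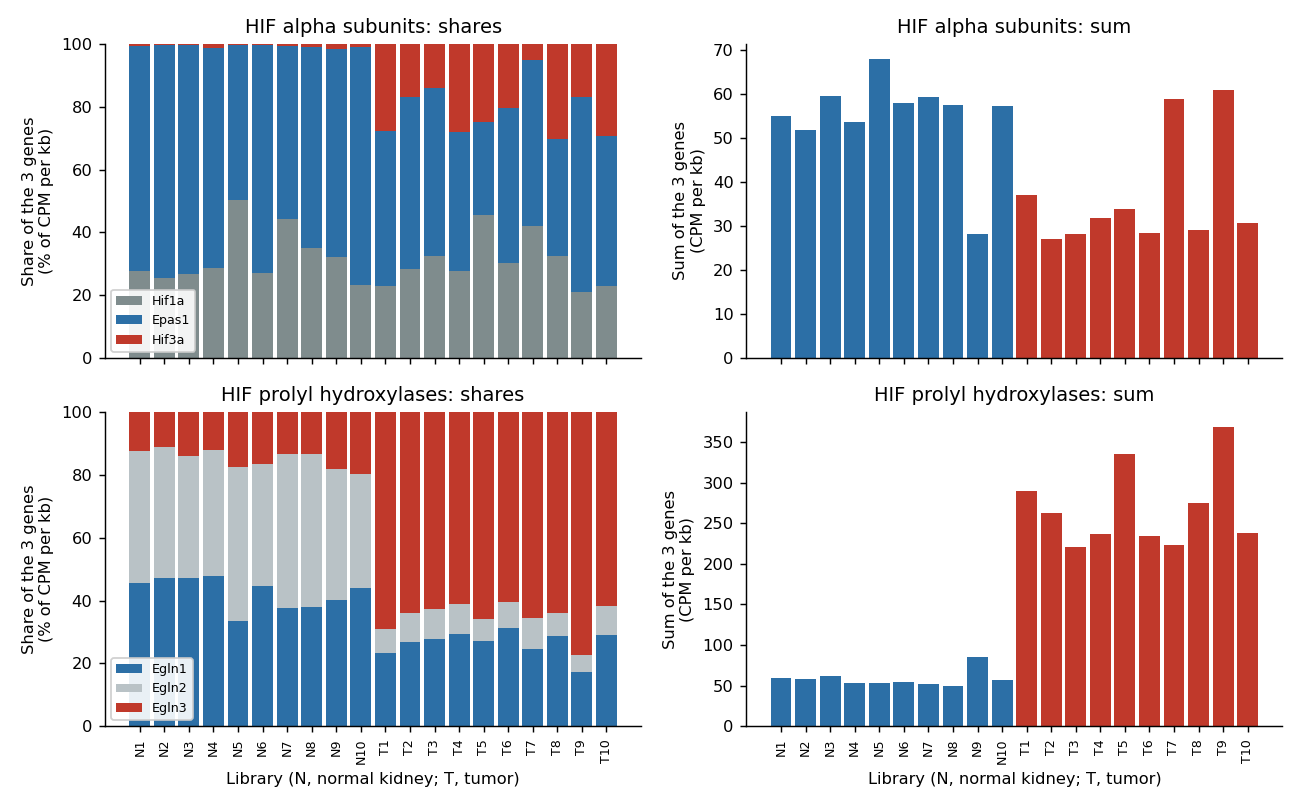
Shares (left, % of summed CPM per kb) and sums (right, CPM per kb) of the 3 alpha subunits (top) and the 3 prolyl hydroxylases (bottom) in each library, N1 to N10 being normal kidneys and T1 to T10 tumors. Hif3a is hardly visible in normal kidneys and takes 5.17 to 30.2% in tumors, and Egln3 goes from 11.1 to 19.5% to 60.3 to 77.3%.

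Because Epas1 is known from endothelial cells, its level was set against the mean log2 CPM of 10 endothelial markers. Within tumors the relation was close (Pearson's r = 0.97, Spearman's rho = 0.96, permutation tests, adjusted p = 1.2e-04 and 3.6e-04 over 6 relations, n = 10). Without the 2 tumors farthest from the median in endothelial markers, numbers 7 and 9, r was 0.91. Within normal kidneys r was 0.96 and rho 0.76 (n = 10, permutation p = 7.5e-04 and 0.0149, which became 0.00225 and 0.0448 after adjustment). It fell to an r of 0.71 without numbers 9 and 10, and normal kidney 9, the library with the length pattern described above, was the lowest in both measures. The log2 CPM of Epas1 exceeded the marker mean by 0.55 to 1.201 in tumors and by 1.22 to 1.74 in normal kidneys. Every tumor lay below every normal kidney in this difference, but only narrowly, and the lowest normal kidney was number 9. The difference was not tested, and the share of all genes with such a separation was not computed.

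The endothelial markers themselves did not fall together, and their counts stand beside 23.6% higher and 23.8% lower over all genes tested. Of 10 tested, 1 was higher in tumors (Cdh5, a junction protein, at a log2 fold change of 0.83) and 3 were lower (Tek at -1.70, Ehd3 at -1.26 and Flt1 at -0.60), with a median of -0.33 against -0.02 over all genes. The number lower was 4 without normal kidney 9 or tumor 7, 6 without tumor 9, 3 without normal kidney 2, and 2 without any other single library. Their summed level was 468 to 1276 CPM in tumors and 595 to 885 CPM in normal kidneys, and no marker was at 0 in a whole group. The part of endothelial RNA in the fall of Epas1 was not tested.

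**Figure D4:**
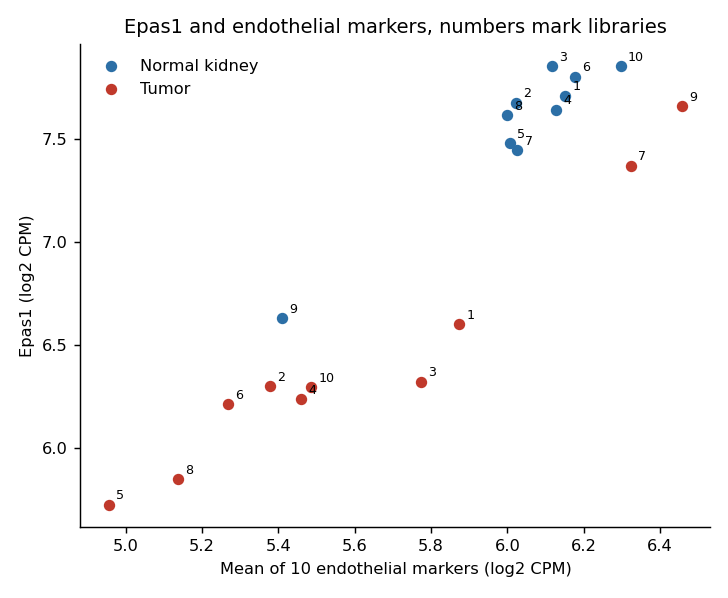
Epas1 (y axis, log2 CPM) against the mean of 10 endothelial markers (x axis, log2 CPM) in 10 normal kidneys (blue) and 10 tumors (red), with library numbers. Both groups rise together with the markers, and 9 of the normal kidneys sit in a cluster at the upper right with normal kidney 9 apart.

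Vhl and Egln3 were set against the mean of 20 HIF target genes, those of HIF1 and those shared by HIF1 and HIF2. For Vhl, r was 0.43 within tumors and -0.26 within normal kidneys (rho = 0.43 and -0.03, permutation tests, p = 0.207 and 0.471 for r and 0.219 and 0.946 for rho, adjusted p of at least 0.263, n = 10 each), so no relation was detectable in these 10 libraries of each group. For Egln3, r was 0.57 within tumors and 0.41 within normal kidneys (rho = 0.71 and 0.45, permutation tests, p = 0.0956 and 0.240 for r and 0.0264 and 0.192 for rho, adjusted p of at least 0.0529, n = 10 each). Without the 2 farthest libraries of each group, r was 0.46 and -0.44 for Vhl and 0.75 and 0.50 for Egln3.

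HIF1-preferring and shared targets were all higher, and HIF2-preferring targets were mixed. Beside the counts below, 23.6% of all genes tested were higher and 23.8% were lower. Of 10 genes listed as HIF1-preferring targets, mostly of glycolysis and pH control, 10 were higher in tumors, with a median log2 fold change of 1.87. The lactate exporter Slc16a3 and the carbonic anhydrase Car9 rose most, by 6.71 (SE 0.284) and 5.20 (SE 0.582) on the log2 scale. All 10 shared targets were higher too, with a median of 1.01. Ankrd37 rose by 6.51 (SE 0.244) and the vasodilator peptide Adm by 3.85 (SE 0.175). Of 10 tested HIF2-preferring targets 5 were higher, 1 was lower and 4 did not pass, with a median of 0.82. Loxl2, which crosslinks collagen, rose by 3.94 (SE 0.244) and the iron transporter Slc11a2 by 1.64 (SE 0.223), while the growth factor gene Tgfa fell by 2.07 on the log2 scale (SE 0.452). The count of HIF2-preferring targets that were higher was 8 without normal kidneys 5, 7 and 8, and in those 3 the lipid droplet gene Plin2, a member of this list, had 1888 to 3778 CPM against 94.8 to 427.5 CPM in the others. Epo and Pou5f1 of this list did not pass the filter. Leaving out a single library gave 4 to 6 HIF2-preferring and 9 or 10 shared targets as higher. No test compared one list with another.

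For the partner lists that follow, the shares over all genes tested were 23.6% higher and 23.8% lower. Of 10 genes of the VHL ubiquitin ligase and its regulators, 3 were higher and 7 did not pass, with a median log2 fold change of 0.06. Usp20, a deubiquitinase that Vhl binds, rose by 1.59 (SE 0.140, adjusted p = 8.4e-09). It lay above every normal kidney in 10 of 10 tumors, a pattern seen in 5.87% of all genes tested. The scaffold Cul2 rose by 0.47 (SE 0.0962, adjusted p = 3.7e-04). The third was Cand1, which exchanges cullin substrate receptors. The adaptors Elob and Eloc had log2 fold changes of -0.22 (SE 0.250) and -0.25 (SE 0.141). The number higher was 5 without normal kidney 9 and with the length correction, 7 with limma-voom quality weights, and with upper quartile or library total scaling 2 were higher and 1 was lower. Of 12 tested partners in HIF turnover, 2 were higher (Hsp90aa1 at 0.47 and Os9 at 0.30) and 4 were lower, led by Rack1 at -0.81 (SE 0.251) and Commd1 at -0.58 (SE 0.216). That last count ranged from 1 to 4 as single libraries were left out (1 without tumor 1 or tumor 8, 2 without normal kidney 2 or 3 or tumor 4, 5 or 6) and was 1 with the length correction. With library totals none of the 12 was called higher.

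Of 10 coactivators and inhibitors of HIF, 2 were higher and 2 were lower, against 23.6% and 23.8% of all genes. Cited1 and Cited2 belong to a family that binds the coactivators CBP and p300, and Cited2 is a known HIF-induced inhibitor of HIF. Tumors averaged 72.6 ± 29.7 CPM of Cited1 against 0.467 ± 0.481 CPM in the normal group (SD, n = 10), and the log2 fold change was 7.23 (SE 0.526, adjusted p = 5.2e-10). For Cited2 these levels were 186.3 ± 50.9 and 92.2 ± 19.9 CPM, with a log2 fold change of 1.01 (SE 0.157, adjusted p = 1.8e-05). Cited4 fell by 1.12 on the log2 scale (SE 0.305) and Ncoa2 by 0.45 (SE 0.148). The coactivators Ep300 and Crebbp themselves had log2 fold changes of -0.11 (SE 0.192) and -0.36 (SE 0.180). The number lower was 5 without normal kidney 9 and also with upper quartile or library total scaling.

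Of 8 tested relatives of the HIF subunits in the bHLH-PAS family, 2 were higher and 3 were lower, beside 23.6% and 23.8% over all genes. Arntl2 and Npas1 rose by 1.42 (SE 0.230) and 0.91 (SE 0.249), at mean levels of 3.55 and 1.41 CPM in tumors. Sim2 averaged 22.9 ± 7.92 CPM in normal kidneys but 0.0487 ± 0.0483 CPM in tumors, and Sim1 averaged 24.4 ± 9.25 and 2.77 ± 3.14 CPM (SD, n = 10 each). For both genes every tumor lay below every normal kidney, a pattern seen in 4.74% of all genes tested. It also held for 7 of 8 tested markers of the loop of Henle, distal tubule and collecting duct. The part of these segments in the fall of Sim1 and Sim2 was not tested. The remaining gene that was lower was the aryl hydrocarbon receptor Ahr, at -1.12 (SE 0.334). With a count minimum of 50 neither Arntl2 nor Npas1 was counted as higher, and without normal kidney 9 the counts were 3 and 4.

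Other enzymes that use oxygen and 2-oxoglutarate or sense oxygen through a thiol were also measured. Of 15 genes, 5 were higher, 2 were lower and 8 did not pass, with a median log2 fold change of 0.33, and 47.5% of all genes passed in either direction. The collagen prolyl hydroxylases P4ha1 and P4ha2 rose by 2.58 (SE 0.247, adjusted p = 2.6e-08) and 2.41 (SE 0.151, adjusted p = 7.0e-11). In both every tumor lay above every normal kidney, as in 5.87% of all genes tested. P4htm, a transmembrane prolyl hydroxylase, fell by 1.47 on the log2 scale (SE 0.430) and Tet3, which oxidizes methylcytosine, by 0.61 (SE 0.234). One of the 2 lower calls was lost in most fits that left out a single library, and the count was 3 without normal kidney 9.

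**Figure D5:**
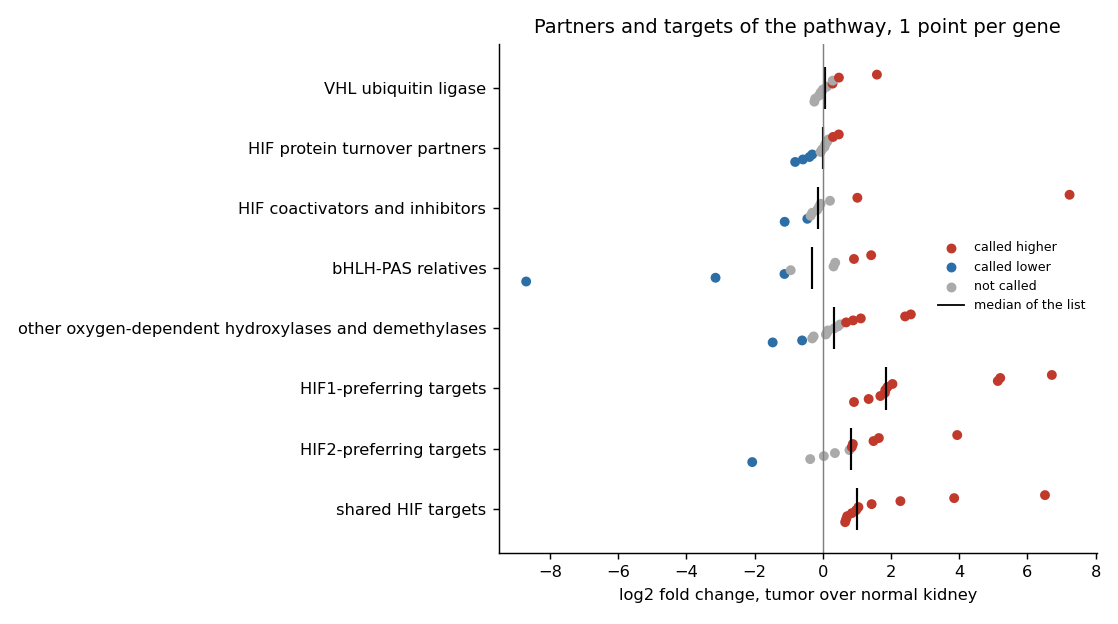
Log2 fold change of tumors over normal kidneys (x axis) for each tested gene of 8 lists of HIF partners and targets, coloured by whether the gene was called higher (red), lower (blue) or not called (grey), with the median of each list as a black line. All 10 HIF1-preferring and all 10 shared targets are red, and the partner lists spread around 0.

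Genes whose level followed each member most closely were sought over the 20 libraries after removing the mean of each group, as Pearson's r of log2 CPM. This is a ranking of likeness and carries no test. Epas1 was followed most closely by Jag2 (r = 0.95), Ptprb (0.93) and Grk3 (0.93), and leaving out normal kidney 9 and tumor 7 changed these to 0.93, 0.95 and 0.89. Hif1a was followed by Rbm12 (0.94), Crtc3 (0.92) and Fmnl2 (0.92). For Hif3a the closest were Grasp, Mb21d2 and Cln6, at only 0.72, 0.69 and 0.68, which became 0.67, 0.62 and 0.59 without these libraries. Egln3 was followed by Dusp2 (0.82), Akirin2 (0.76) and Rgs4 (0.76), which became 0.78, 0.62 and 0.75, and Egln1 by Kcnn1, Ackr3 and Slc27a2 (0.91, 0.91 and 0.90). For Vhl, Jmjd4 (0.76), Cyp4a14 (0.73) and Zfp963 (0.72) came first.

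For every member except Epas1, Arnt2 and Vhl, all of these values were lower without normal kidney 9 and tumor 7. The values of Hif1a became 0.92, 0.89 and 0.85, those of Egln1 0.90, 0.87 and 0.87, and those of Vhl 0.80, 0.76 and 0.74. Arnt was followed by Atrx, Son and Zmym4, all at 0.97, and these fell to 0.83, 0.82 and 0.79 without normal kidney 9 and tumor 7. Hif1an was followed by Lmtk2 (0.96) and Ptprf (0.95), which became 0.81 and 0.78. Egln2 was followed by Drap1, Ubxn8 and Rab5if (0.93, 0.93 and 0.92), which became 0.83, 0.84 and 0.80. Arnt2 was followed by Mkl2, Shtn1 and Als2cl, all at 0.90, which became 0.85, 0.88 and 0.92.

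Some members share their position with other annotated genes, and whether the counting used strand is not given in the sources used here. The antisense gene Gm15283 covers all of Hif1a and had up to 216 reads in a library, against 789 or more of Hif1a. The other overlapping genes, 1 each for Hif3a, Arnt and Egln2 and 2 for Arnt2, had 15 reads or fewer in any library, and a second gene overlapping Hif1a had none.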

How the data were processed

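RNA of 10 tumors and 10 normal kidneys was sequenced as read pairs, and the authors deposited raw read counts per gene, without normalization. The labels name the build mm10; the gene identifiers and positions in the table are those of Ensembl on GRCm38. Aligner, counting tool, versions and use of strand are not given in the sources used here. The study analysed the counts on the NIDAP portal and names no covariate.

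Counts were scaled by TMM factors and tested with edgeR 4.0.16 (quasi-likelihood test, R 4.3.3) on all 20 libraries after filtering low counts by expression (minimum 10 reads), which left 15354 genes, with Benjamini-Hochberg adjustment and a threshold of 0.05. Intervals are the estimate plus or minus 1.96 SE. Log2 CPM used a prior count of 2. Levels per kb used the transcript length in the table. Correlations used two-sided permutation tests with 100000 resamples, adjusted over 6 relations. The tests were tried on simulated data with known changes. Alternatives were other normalizations, filters and tests (DESeq2 1.42.0, limma 3.58.1), a replicate block, a correction for gene length, and leaving out each library. Total counts of 14737516 to 26679704 set the precision, and reads are not independent molecules. No pair of libraries within a group agreed within sampling noise (chi-square per degree of freedom at least 12.8).

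The members, the lists of pathway genes and markers, and the tests were chosen with earlier results of these data known. Named genes are the members, up to 2 of the largest rises and falls of each pathway list, the 3 protein-coding genes most like each member (1 of them is not reported here), and overlapping genes. Other genes named (the other targeted genes, endothelial markers, Plin2, Cand1, Elob, Eloc, Ep300, Crebbp and Ahr) were chosen after their values were seen. Leaving out normal kidney 9 with tumor 7, or normal kidneys 5, 7 and 8, was also chosen after seeing the data. Promoter sequences are RefSeq's, from GRCm38.p6; Epas1 was not among them.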

Additional observations from a re-analysis of the deposited data

Results flagged for a closer look

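In 5 of 20 groups checked (10 genes in 2 groups of 10 libraries), the lowest or highest library lay apart from the rest, with a gap to its neighbour above 0.466 of the range of the group. For independent groups chance gives about 1 in 20. The groups here share the same libraries, so the count of 5 cannot be measured against that rate. Normal kidney 9 was the library in 4 of the 5. It was lowest for Epas1 (6.63 log2 CPM, next 7.44), Arnt (4.29, next 5.34) and Hif1an (4.94, next 5.57), and highest for Egln2 (6.65, next 6.19). Tumor 7 was lowest of the tumors for Hif1an (5.29 log2 CPM, next 5.85). In normal kidney 9 long transcripts were low over all genes, and tumor 7 had the highest sum of fibroblast, macrophage, adipocyte and smooth muscle markers among the tumors. The part of either in these values was not tested.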

How the results depend on the processing

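Over 33 other fits, the number of members higher in tumors was 3 or 4 and the number lower was 3 to 5; leaving out single libraries gave 3 higher and 3 or 4 lower. With the study's limits the number lower was 1, and in 12 of the 33 fits it was 0, since Epas1 then missed the fold limit (-0.998 to -0.943). Epas1, Arnt2, Vhl, Hif3a, Egln1 and Egln3 kept their direction and call in all 33, and Hif1a kept its call in 27. Arnt was never called and reversed with upper quartile scaling (-0.0578), library totals (-0.0856), limma-voom quality weights (-0.0234) and without normal kidney 9 and tumor 7 (-0.0788); leaving out single libraries gave -0.0333 (normal kidney 9) to 0.0911. Upper quartile and library total scaling moved the all-gene median on the log2 scale from -0.02 to -0.14, and the share of higher among called genes from 49.8% to 39.2% and 38.5%; the length correction moved the median to 0.09 and that share to 59.9%.

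The replicate block left 3 members higher and 4 lower, and with the length correction it gave 4 and 4, Hif1an being added at 0.24. The labels do not say that a number marks a mouse. Deviations of same-numbered libraries correlated at more than 0.1 in 9 of 10 pairs (lowest -0.14, median 0.26, against 0.01 for other numbers), and 8 tumors and 5 normal kidneys correlated best with their own number, a hint from the data that numbers may be shared. Since 1 pair was not over 0.1, the numbers were not taken as pairs. That pair was number 9, which holds the normal kidney with the length pattern. With the block Hif1a had an adjusted p of 0.00229, and with block and length correction 3.3e-04.

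With library totals r for Vhl and the targets in tumors was 0.22, and 0.76 without the 2 farthest libraries; r for the targets in normal kidneys reversed to 0.37 for Vhl and to -0.25 for Egln3, and in tumors r for Egln3 passed the test at 0.75 (adjusted p = 0.0316). Without the 2 farthest libraries r for Epas1 in normal kidneys moved to 0.71. The cause of these changes was not tested. Counts limit Hif3a in normal kidneys, where 16 reads were the lowest.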
